A study of Arabidopsis thaliana with 48 samples.

Results

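The chloroplast of Arabidopsis thaliana carries its own genome, and the count tables hold 133 of its genes among 32678 genes. They were taken as all genes whose identifier begins with ATCG, with 1 row per gene, the longest one, so no measured value was used to choose them. RNA came from whole seedlings of wild type and of a mutant labelled snrk1a1/a2, marked kd in the sample titles. Both were sampled after 3 d of growth in darkness, on d 4 and d 5 under light or darkness, and on d 4 under light or darkness with glucose, where days count from germination. These 14 groups hold 3 libraries each, 42 in all. The mutated genes encode catalytic subunits of SnRK1, a kinase of the response to low energy. How the mutant was made, when light began, the glucose dose and whether replicates were separate cultures are not given in the sources used here, so p-values measure only the spread between these libraries, which may be technical.

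Chloroplast genes encode subunits of both photosystems, the cytochrome b6f complex, ATP synthase, the NDH complex and the large subunit of Rubisco, as well as tRNAs, rRNAs and part of the plastid's own ribosome and RNA polymerase. A plastid-encoded polymerase, steered by nuclear sigma factors, transcribes most photosynthesis and tRNA genes, and nuclear-encoded phage-type polymerases transcribe a set of housekeeping genes. Seedlings grown in darkness hold etioplasts, which become green chloroplasts in light. Mature plastid mRNAs lack the stable poly(A) tail of nuclear mRNAs, and in plastids a tail marks RNA for breakdown.

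By coordinates, all but 3 of the 133 genes matched a gene of the RefSeq annotation of the chloroplast genome (TAIR10.1, 154478 bases). Of these 3, rrn5S (ATCG00970) was named after its identical second copy, and ATCG00870 and ATCG01270 have no name here. In all, 36 genes lie in the inverted repeat, a stretch present in 2 identical copies, where a read cannot be assigned to 1 copy. They held only 0.156% of the counts of chloroplast genes, and the rRNA genes are among them. Tests were run on the 105 genes that passed the filter on low counts, which are the 97 genes of 1 copy and 8 of the 36 genes of 2 copies. No library had a count for trnL (ATCG00880) or trnN (ATCG01140), which lie in the repeat.

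In a cluster of tRNA genes on the minus strand, trnY and trnE had the largest falls with glucose among the genes described below, and trnD lies beside them. Their sequences are given with the anticodon in capitals (RefSeq, TAIR10.1, 5′ to 3′, at ChrC:29801-29874, ChrC:30323-30406 and ChrC:30466-30538).
trnD: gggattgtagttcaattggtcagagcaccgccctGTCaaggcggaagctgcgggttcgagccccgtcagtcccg
trnY: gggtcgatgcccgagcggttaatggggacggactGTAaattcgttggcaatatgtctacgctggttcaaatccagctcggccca
trnE: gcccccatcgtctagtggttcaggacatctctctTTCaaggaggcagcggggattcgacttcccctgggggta
They carry aspartate, tyrosine and glutamate, and the glutamate tRNA is also the starting point of chlorophyll synthesis. Of all 50-base stretches of trnY, 0% occur only once in the whole genome, so its counts are uncertain. The plastid-encoded polymerase recognises promoters like those of bacteria. Windows of 300 bases before the start of each gene were searched on both strands for TTGACA followed after 15 to 21 bases by TATANT. The pair was in 2 of 133 windows (1.504%), in both on the strand of the gene. These windows precede psbA, whose fall in the mutant on d 5 in darkness is described below, and trnK. The matches, with the elements in capitals, lie on the minus strand 115 bases before the start of psbA (ChrC:1530-1559) and 139 bases before that of trnK (ChrC:4458-4486).
psbA: TTGACAtggctatataagtcatgtTATACT
trnK: TTGACAacagtgtatggaccaaaTATAAT

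Library totals ran from 4956025 to 26126836 counts. Columns of the 3 d groups appear under both of the study's title series and were summed as repeat runs, since columns of the same number differed by about sampling noise alone. Glucose libraries carry one title series and the untreated d 4 libraries the other, so glucose and title series cannot be told apart. KIN10 and KIN11, the catalytic subunits, check the labels. With all libraries KIN10 gave no call below wild type. It was higher in the mutant in light on d 4 and d 5 (1.24 ± 0.40 and 1.71 ± 0.40 on the log2 scale). KIN11 was lower with glucose in light (-1.01 ± 0.18) and on d 4 in darkness (-0.47 ± 0.17). "Mutant" therefore means the libraries labelled so. Among the glucose libraries of darkness, those labelled wild type 2 and mutant 2 stood with the other genotype on the first principal component of all genes. Their scores were 25.65 and -21.05, beside 16.96 and 18.43 in mutant 1 and 3 and -22.61 and -27.57 in wild type 1 and 3. With glucose in darkness 0 of the 2 catalytic subunit genes were called lower in the mutant with all libraries, and 1 without this pair. Results that rest on the pair are given with and without it, except those of the mitochondrial share, given with all libraries alone. All 5 shoot and all 7 root markers were detected in some library, and their summed levels ran from 137 to 621 CPM (counts divided by the library total and scaled per 1e6) and from 75.5 to 228 CPM.

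Chloroplast genes took between 1.35% and 4.18% of the counts of a library. In these bulk samples fewer plastids or cells and less RNA per cell cannot be told apart. The mean share was highest in wild type on d 4 in darkness (3.95% ± 0.203, SD, n = 3), followed by the mutant there (3.65% ± 0.339) and by wild type on d 5 in darkness (3.56% ± 0.562). The lowest means belonged to glucose-fed wild type, at 1.93% ± 0.325 in light and 2.03% ± 0.628 in darkness. Neighbours in the order of the 14 means overlapped in every case. The plot of shares by library shows the whole set, with the mitochondrial share beneath.

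**Figure D1:**
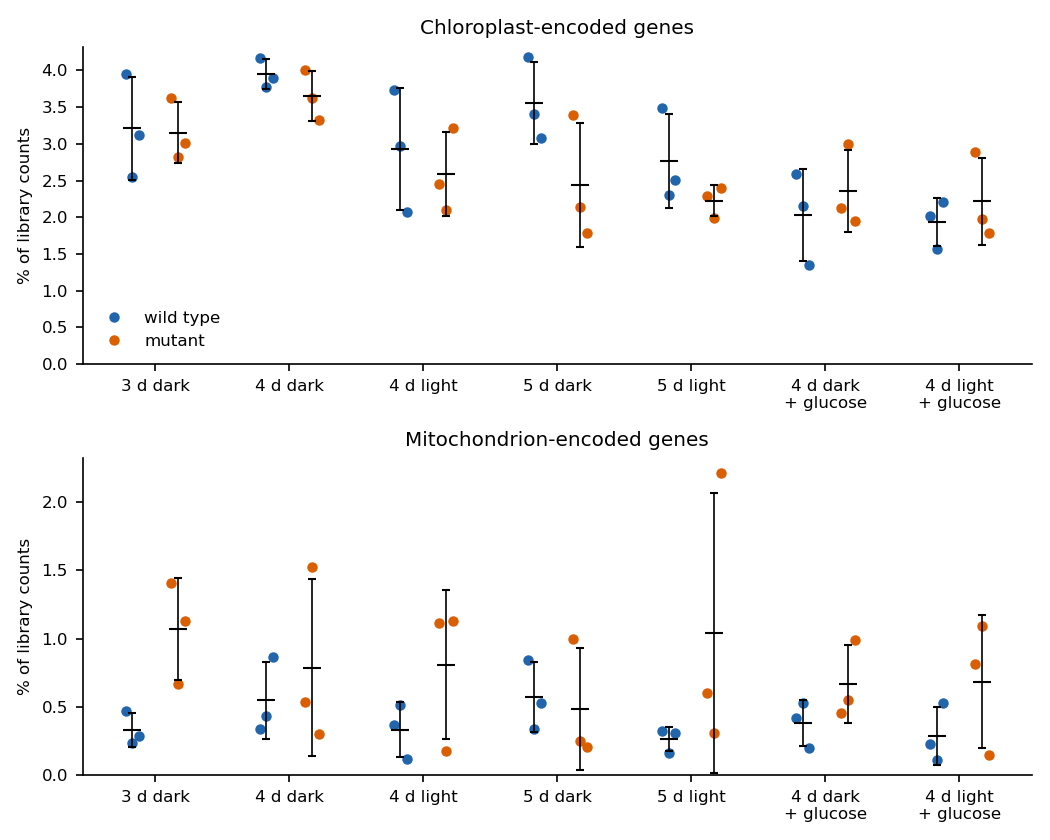
Share of library counts (%) taken by 133 chloroplast-encoded genes (top) and by 146 mitochondrion-encoded genes (bottom) in 7 conditions. Points are libraries of wild type and mutant, bars are mean ± SD of 3 libraries; the chloroplast share lies between 1.35% and 4.18%, and the mitochondrial share has the higher mean in the mutant in 6 of 7 conditions.

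In light the chloroplast share was 0.834 times its level in darkness over 6 pairs of groups, and lower in all 6 (mean log2 difference -0.26, two-sided permutation test within pairs, 100000 resamples, p = 0.01785). Without the glucose libraries labelled wild type 2 and mutant 2 the difference was -0.22 and the permutation p = 0.05977, so the call was lost. On d 4 without glucose, wild type stood at 4.18%, 3.78% and 3.90% in darkness and at 3.74%, 2.97% and 2.07% in light, and the ranges do not overlap. The mutant stood at 4.01%, 3.62% and 3.33% in darkness and 2.45%, 2.09% and 3.21% in light, again apart. On d 5 the ranges overlapped, at 3.08% to 4.18% in darkness and 2.30% to 3.49% in light in wild type. In the mutant they were 1.78% to 3.40% and 1.99% to 2.40%. With glucose light and darkness also overlapped in both genotypes. In wild type and mutant, light stood at 0.721 and 0.699 times darkness on d 4, 0.771 and 0.945 on d 5 and 0.975 and 0.937 with glucose. Between genotypes the share gave no call, at 0.928 times the wild-type level in the mutant over 7 conditions, 5 of them lower (mean log2 difference -0.11, permutation p = 0.2862). Without the glucose libraries labelled wild type 2 and mutant 2 the mean log2 difference was -0.12 (permutation p = 0.2433). Without ycf1, the gene with the most counts, and with all libraries, it was -0.23 (permutation p = 0.05497). With all libraries, that pair included, the mitochondrial share was 1.82 times the wild-type level in the mutant (permutation p = 0.00983, higher in 6 of 7 conditions). It gave no call with light (0.809 times, permutation p = 0.3946).

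With glucose in darkness the chloroplast share was 2.59%, 2.16% and 1.35% in wild type and 2.12%, 2.99% and 1.95% in the mutant, below every untreated library of that genotype on d 4 in darkness. In light the glucose groups (1.57% to 2.20% in wild type and 1.78% to 2.89% in the mutant) overlapped the untreated groups (2.07% to 3.74% and 2.09% to 3.21%). An exact permutation test of 3 against 3 libraries cannot go below p = 0.10, so single conditions were not tested.

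Levels differed widely between genes. Compared per length, as mean CPM per kb of exon over all libraries, the highest level was that of rpl32, a protein of the large ribosomal subunit (7115), followed by atpE, the epsilon subunit of ATP synthase (6969.8), and psbM, a small subunit of photosystem II (3986). The ribosomal protein gene rpl16 (3195), the histidine tRNA trnH (2125) and atpB, the beta subunit of ATP synthase (1982), came next. Lower levels were found for psbD, the D2 reaction centre protein of photosystem II (995), rbcL, the large subunit of Rubisco (626), and psbA, the D1 reaction centre protein (238). In other complexes psaJ of photosystem I stood at 571, petB of cytochrome b6f at 372, ndhC of the NDH complex at 647, and rpoA, a subunit of the plastid-encoded polymerase, at 481. The tRNAs printed above lay at 54.6 (trnD), 69.2 (trnY) and 184 (trnE). The repeat-borne rRNA genes rrn16S (ATCG00920) and rrn23S (ATCG00950) lay at 5.16 and 5.29.

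As a share of all chloroplast counts, ycf1 (ATCG01130, a subunit of the protein import machinery of the inner envelope) held 11.1%, atpB 10.7% and atpE 10.1%, while rbcL held 3.00% and psbA 0.781%. By class, the 6 ATP synthase genes held 25.0%, the 26 ribosomal protein genes 24.0%, the 15 photosystem II genes 11.4%, the 5 photosystem I genes 4.77% and the 37 tRNA genes 3.09%. Rows of atpB and atpE, of psbD and psbC, and of rps3 and rpl22 overlap on the chromosome, and the counting options gave a read in an overlap to both.

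Libraries of the same group differed far more in chloroplast genes than in nuclear ones. The median within-group SD of log2(CPM + 1) was 0.93 over the 105 tested genes and 0.25 over 22433 nuclear genes. It was above 1 in 47 of the 105 genes (44.8%) and in 0.152% of nuclear genes. Among genes of mean log2 CPM from 8 to 20, where counts are high, the medians were 0.55 and 0.26. The biological coefficient of variation from edgeR had a median of 62.5% over the tested chloroplast genes and of 18.0% over all genes. Wide spread was not particular to chloroplast genes. Over 48 tested mitochondrion-encoded genes the median SD was 0.52, with 22.9% of genes above 1, and the median coefficient of variation was 74.4%.

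**Figure D2:**
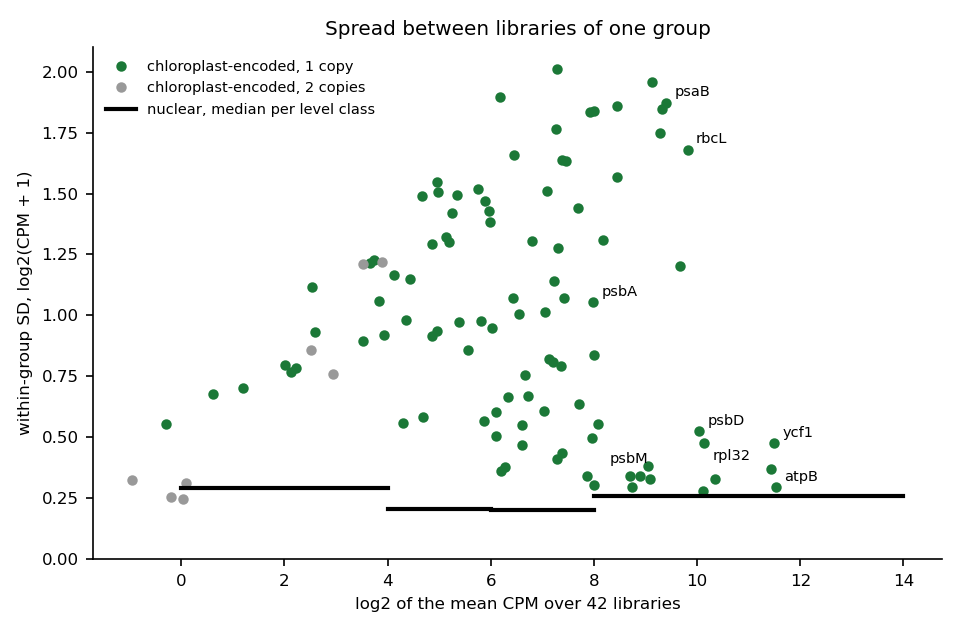
Within-group SD of log2(CPM + 1) against log2 of the mean CPM for the 105 tested chloroplast-encoded genes, with the median of nuclear genes in classes of mean log2 CPM as black lines. atpB (SD 0.295) and psbM (0.342) lie near the nuclear lines, and rbcL (1.68) and psaB (1.87) far above them.

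Of the 97 genes of 1 copy, 19 had an SD of at most 0.5, and these held 59.1% of all chloroplast counts. Among them were atpB (0.295), ndhK of the NDH complex (0.295), rpl16 (0.327), psbM (0.342) and ycf1 (0.477). At the other end, 45 genes had an SD above 1 and 28.9% of the counts, among them psaB, a reaction centre protein of photosystem I (1.87), petB (1.83), rpoC1 of the plastid-encoded polymerase (1.76) and rbcL (1.68). In wild type on d 4 in light, for example, rbcL stood at 1168, 2382 and 67.1 CPM, with library 3 far below the others. In the mutant on d 4 in darkness it stood at 474, 1888 and 90.9 CPM, again with library 3 lowest. In the same libraries atpB ran only from 3235 to 4824 CPM and from 3516 to 3949 CPM.

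The widely varying genes moved with the mitochondrial share of the library. As deviations from group means over 42 libraries, rbcL had Pearson's r = 0.898 and Spearman's rho = 0.897 with the log2 mitochondrial share (permutation p = 1e-05 for each, the smallest that 100000 resamples can give, adjusted over 4 relations 2e-05). For psbA r was 0.898 and rho 0.878, with the same permutation p. The sign was opposite for rpl32 (r = -0.789, rho = -0.741, permutation p = 4e-05 and 7e-05, adjusted 5.33e-05 and 9.33e-05) and for atpB (r = -0.469, rho = -0.441, permutation p = 0.0324 and 0.0277, the same when adjusted). Without the 2 libraries farthest in mitochondrial share, mutant 2 on d 4 in light and mutant 3 with glucose in light, r was 0.884 for rbcL, 0.873 for psbA, -0.745 for rpl32 and -0.490 for atpB. The 4 genes were chosen among 97 genes of 1 copy with earlier results of these data known. The adjustment covers the 4 relations and not that choice. Among the 97 genes rpl32 had the lowest r, and rbcL and psbA stood at the highest value, 0.898. Their p-values thus belong to genes at the ends of the range.

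Over the 97 genes of 1 copy r was above 0.5 in 68 and below 0 in 12. Its median was 0.83 (0.144 to 0.898) in the 45 genes of high spread and -0.19 (-0.789 to 0.681) in the 19 of low spread. Both measures share the library total as denominator, and the part of the mitochondrial share in the spread was not tested. The longest run of A in the exons and the densest 20-base stretch of A had Spearman's rho with the spread of 0.009 and 0.054 over the 97 genes, and exon length 0.235, all as descriptions.

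**Figure D3:**
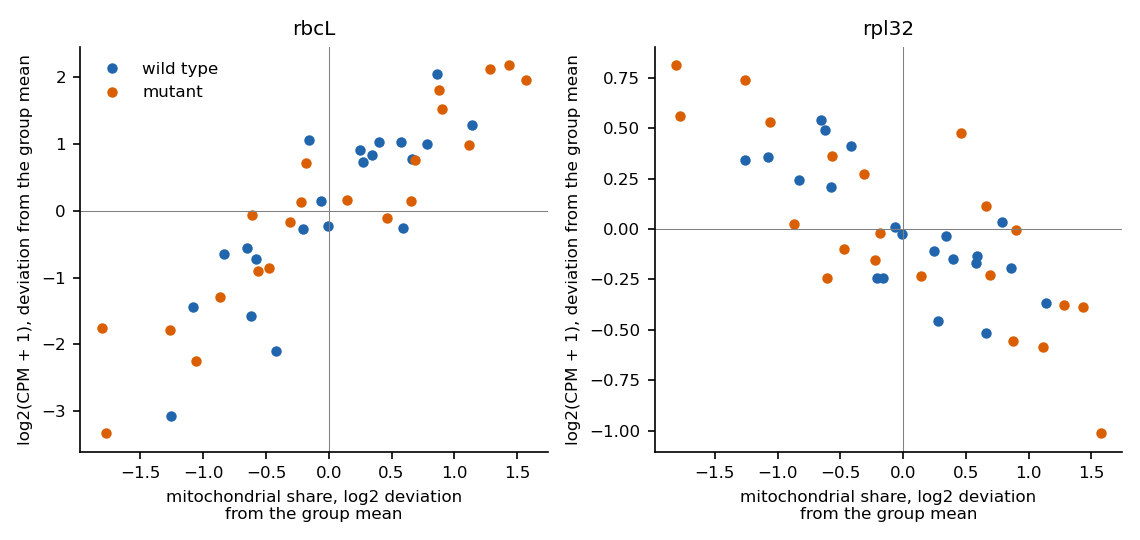
Deviation of log2(CPM + 1) from the group mean for rbcL and rpl32 against the deviation of the log2 mitochondrial share, for 42 libraries of wild type and mutant. rbcL rises with the mitochondrial share (r = 0.898) and rpl32 falls (r = -0.789).

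For single genes, differences are log2 fold changes ± SE from edgeR's quasi-likelihood fit of all 42 libraries after TMM scaling, which sets the libraries to a common level of most genes, and p-values are Benjamini-Hochberg adjusted over 22586 genes. CPM is on the library total, so the scales differ: library totals alone move the median fold change of all genes by -0.20 to 0.44 log2, and by over 0.1 in 9 of 24 comparisons. Of all genes called between genotypes, TMM put 54.8% higher in the mutant on d 3, 50.9% and 53.4% on d 4 and 48.8% and 55.9% on d 5 (darkness, then light), and library totals 70.3%, 66.2%, 70.8%, 60.8% and 75.7%. With glucose in wild type the calls were 51.3% and 49.7% higher, and 73.2% and 74.2% on library totals, in darkness and light, and for light on d 5 in wild type 46.6% and 28.7%. A gene is called at an adjusted p under 0.05. Over the 21 comparisons of 2 groups, 53 of the 105 genes were called at least once and 52 never, 147 calls in all. There were 110 calls of the genes picked by the naming rule, the 3 in genotype by light interactions included. Of these, 33 stood in every refit that left out 1 library of the comparison, and such calls are named stable below. The naming rule picked called genes partly by groups that do not overlap. Groups that stand apart in a named gene are therefore no further support for its call.

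On d 3 in darkness 4 genes were lower in the mutant and 0 higher (over all genes 17.3% were called higher and 14.3% lower). The beta subunit gene atpB was at 1972, 2895 and 2249 CPM in the mutant and 3446, 3911 and 3525 CPM in wild type (-0.74 ± 0.25, edgeR adjusted p = 0.0202). Every mutant library was below every wild-type one. The others were the neighbouring ribosomal protein genes rpl14 (-0.92 ± 0.29), rpl16 (-0.70 ± 0.25) and rps3 (-0.63 ± 0.23, named after its values were seen). rbcL, at 933, 967 and 1121 CPM in the mutant and 651, 73.6 and 664 CPM in wild type, was not called. None of the named calls was stable: the count was 2 without wild type 1 or 2, 1 without mutant 1 and 0 without mutant 3. Library totals alone gave 1 gene lower. Summed shoot markers were 363 to 493 CPM in the mutant and 561 to 621 CPM in wild type, and root markers 110.4 to 132 CPM and 201 to 228 CPM, without overlap. The part of tissue markers in the results was not tested, here and in the comparisons that follow.

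By d 4 in darkness the mutant had 8 genes higher and 3 lower (over all genes 29.5% were called higher and 28.5% lower). The stable call was ycf1, at 6365, 4689.7 and 7083 CPM in the mutant and 1882, 2034 and 1389 CPM in wild type (1.52 ± 0.36, edgeR adjusted p = 0.00061), with groups far apart. Of the other higher genes 6 encode tRNAs and 1, petN, a small subunit of cytochrome b6f (1.71 ± 0.72). trnE was at 66.1, 5.92 and 50.7 CPM in the mutant and 6.61, 10.2 and 2.86 CPM in wild type (2.39 ± 1.02). trnY was at 28.1, 1.90 and 18.5 CPM and 2.40, 2.67 and 1.20 CPM (2.68 ± 1.01), and trnD at 20.5, 2.96 and 13.4 CPM and 2.40, 3.25 and 3.23 CPM (1.80 ± 0.70). In all 3 tRNAs mutant 2 lay within the wild-type range. That library had the highest mitochondrial share of its group (0.537%, 1.52% and 0.300%), whose part in the result was not tested.

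Lower in the mutant at the same stage were psbD, at 1358, 1498 and 1020.3 CPM against 2565, 2072 and 2281 CPM (-1.10 ± 0.42), psbM (-0.71 ± 0.27) and atpB (-0.57 ± 0.25). Groups were apart for psbD and overlapped for psbM and atpB. Library totals alone left none of these lower: they gave 11 genes higher and 0 lower. Leaving out a library gave 1 call without mutant 1, 2 without wild type 1, 4 without mutant 3 or wild type 3 and 5 without wild type 2. The genotypes did not overlap in summed shoot markers, at 222 to 268 CPM in the mutant and 399.6 to 466 CPM in wild type, or in root markers, at 86.2 to 105 CPM and 185 to 199.7 CPM.

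In light on d 4 the mutant had 4 genes lower and 0 higher (over all genes 28.8% were called higher and 25.2% lower). The stable call was atpB, at 1958, 2198 and 3220.1 CPM in the mutant and 4638, 3235 and 4824 CPM in wild type (-1.06 ± 0.25, edgeR adjusted p = 0.0005). Mutant 3 and wild type 2 nearly met, and the groups did not overlap. The others were rpl14 (-0.74 ± 0.29), rpl22, also a ribosomal protein gene (-0.66 ± 0.26), and ndhJ of the NDH complex (-0.99 ± 0.38, named after its values were seen). The count was 1 without wild type 1, 2 without mutant 2 and 6 without wild type 2, and library totals alone gave 2 higher and 1 lower. Shoot markers summed to 206 to 287 CPM in the mutant and 403 to 467 CPM in wild type and did not overlap, while root markers did, at 86.1 to 186 CPM and 131 to 135 CPM.

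The genotype comparison with the highest count was that of d 5 in darkness, where the mutant had 19 genes lower and 3 higher (over all genes 29.9% were called higher and 31.4% lower). The median fold change of the 105 genes was -1.22, against -0.04 over all genes. Photosystem II held 9 of the 19, out of 15 tested. psbA was at 111, 32.5 and 26.1 CPM in the mutant and 593, 263 and 393 CPM in wild type (-3.11 ± 0.87, edgeR adjusted p = 0.00291). psbD was at 1365, 576 and 426 CPM and 2344, 2524 and 1998 CPM (-1.75 ± 0.42), and psbM at 345, 389.6 and 324 CPM and 941, 897 and 839.9 CPM (-1.57 ± 0.28). In each of these genes every mutant library was below every wild-type library. psbC, an inner antenna protein whose gene overlaps psbD, was lower as well (-2.34 ± 0.92), and that call ended without wild type 1, mutant 2 or mutant 3.

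Outside photosystem II the small photosystem I subunit gene psaJ was lower (-1.56 ± 0.32), as was the ribosomal protein gene rps14, at 159, 71.7 and 56.4 CPM in the mutant and 492, 246 and 293 CPM in wild type (-2.08 ± 0.42). All 4 tested rRNA rows were lower, which are rrn16S and rrn23S in both copies, with fold changes of -2.12 ± 0.76 and -2.91 ± 1.14 for the first copies. A read cannot be assigned to 1 copy, so these rows are not separate signals among the 19. Both first-copy calls ended without wild type 1, mutant 2 or mutant 3. rbcL missed the threshold, at 628, 73.8 and 56.1 CPM against 2364, 940.0 and 1182 CPM (-2.79 ± 1.27, edgeR adjusted p = 0.0585), while DESeq2 called it (adjusted p = 0.0208). Higher in the mutant were ycf1, at 3880.0, 5094 and 4211 CPM against 1366, 1181 and 741 CPM (1.77 ± 0.37), rpl16 (0.70 ± 0.25) and rps15 (0.95 ± 0.38). The calls of psbA, psbD, psbM, psaJ, rps14 and ycf1 were stable.

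Within this mutant group library 1 was the highest in psbA, psbD and rbcL, and the mitochondrial shares were 0.996%, 0.249% and 0.202%, against 0.844%, 0.338% and 0.530% in wild type. Summed shoot markers were 137 to 223 CPM in the mutant and 333 to 381 CPM in wild type, and root markers 97.2 to 106 CPM and 209 to 227 CPM. The part of the mitochondrial share in the result was not tested. The count was 63 without mutant 1, 9 without mutant 2, and 11 without mutant 3 or wild type 1, and DESeq2 called 35. Library totals alone gave 5 higher and 15 lower.

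On d 5 in light 13 genes were lower in the mutant and 4 higher (over all genes 33.4% were called higher and 26.4% lower), and 6 of the 13 belong to photosystem II. psbD was at 414, 481 and 662 CPM in the mutant and 2765, 803 and 2182 CPM in wild type (-2.37 ± 0.43, edgeR adjusted p = 2.1e-05), and psbM at 347, 386 and 195 CPM and 776, 919 and 598 CPM (-1.74 ± 0.28). atpB was at 1774, 3179 and 1522 CPM and 4082, 3919 and 3979 CPM (-1.34 ± 0.25). The groups were apart in all 3 genes. rps14 (-1.94 ± 0.42), psaJ (-1.45 ± 0.32) and atpE (-0.98 ± 0.29) were lower too. ycf1 was higher, at 5315, 4066 and 2734 CPM against 717, 2693 and 549.7 CPM (1.23 ± 0.36). Its lowest mutant library and highest wild-type library nearly met.

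These 7 calls were stable, though atpE was not called on library totals alone. psbA was at 104, 58.5 and 404 CPM against 645, 353 and 1229.7 CPM (-2.48 ± 0.85), with overlap, and its call ended without wild type 3, mutant 1 or mutant 2. psbC (-2.62 ± 0.93) lost its call without wild type 1, mutant 1 or mutant 2. The count was 11 without wild type 1 or wild type 3, and library totals alone gave 10 higher and 8 lower. Mitochondrial shares were 0.599%, 0.310% and 2.21% in the mutant and 0.320%, 0.164% and 0.305% in wild type, and the part of these was not tested. Summed shoot markers were 162 to 180.4 CPM and 335 to 419 CPM, without overlap, and root markers 75.5 to 205 CPM and 118 to 134 CPM, with overlap.

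With glucose no chloroplast gene was called between genotypes. In darkness edgeR called 0 of 105, with 0 at an unadjusted p under 0.05, and DESeq2 did the same (0% of all genes called by edgeR). In light edgeR called 0 with 1 at an unadjusted p under 0.05, and DESeq2 likewise (9.46% of all genes called by edgeR). psbD was at 665, 1014 and 529 CPM in the mutant and 858, 657 and 558 CPM in wild type in darkness, and ycf1 at 1498, 1385 and 2155 CPM and 1377, 1778 and 1019 CPM. These groups overlap, as the plot of CPM by library shows. Without the libraries labelled wild type 2 and mutant 2 the count in darkness was again 0, while 4.63% of all genes were called. In ycf1 the overlap rests on that pair: both other mutant libraries lay above both other wild-type libraries, and the fold change without the pair was 0.54 ± 0.44, adjusted p = 0.572, beside 0.27 ± 0.36 with all libraries. In psbD it was -0.32 ± 0.50, adjusted p = 0.806, beside 0.08 ± 0.41. Whether the genotype difference changed with glucose was not tested.

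**Figure D4:**
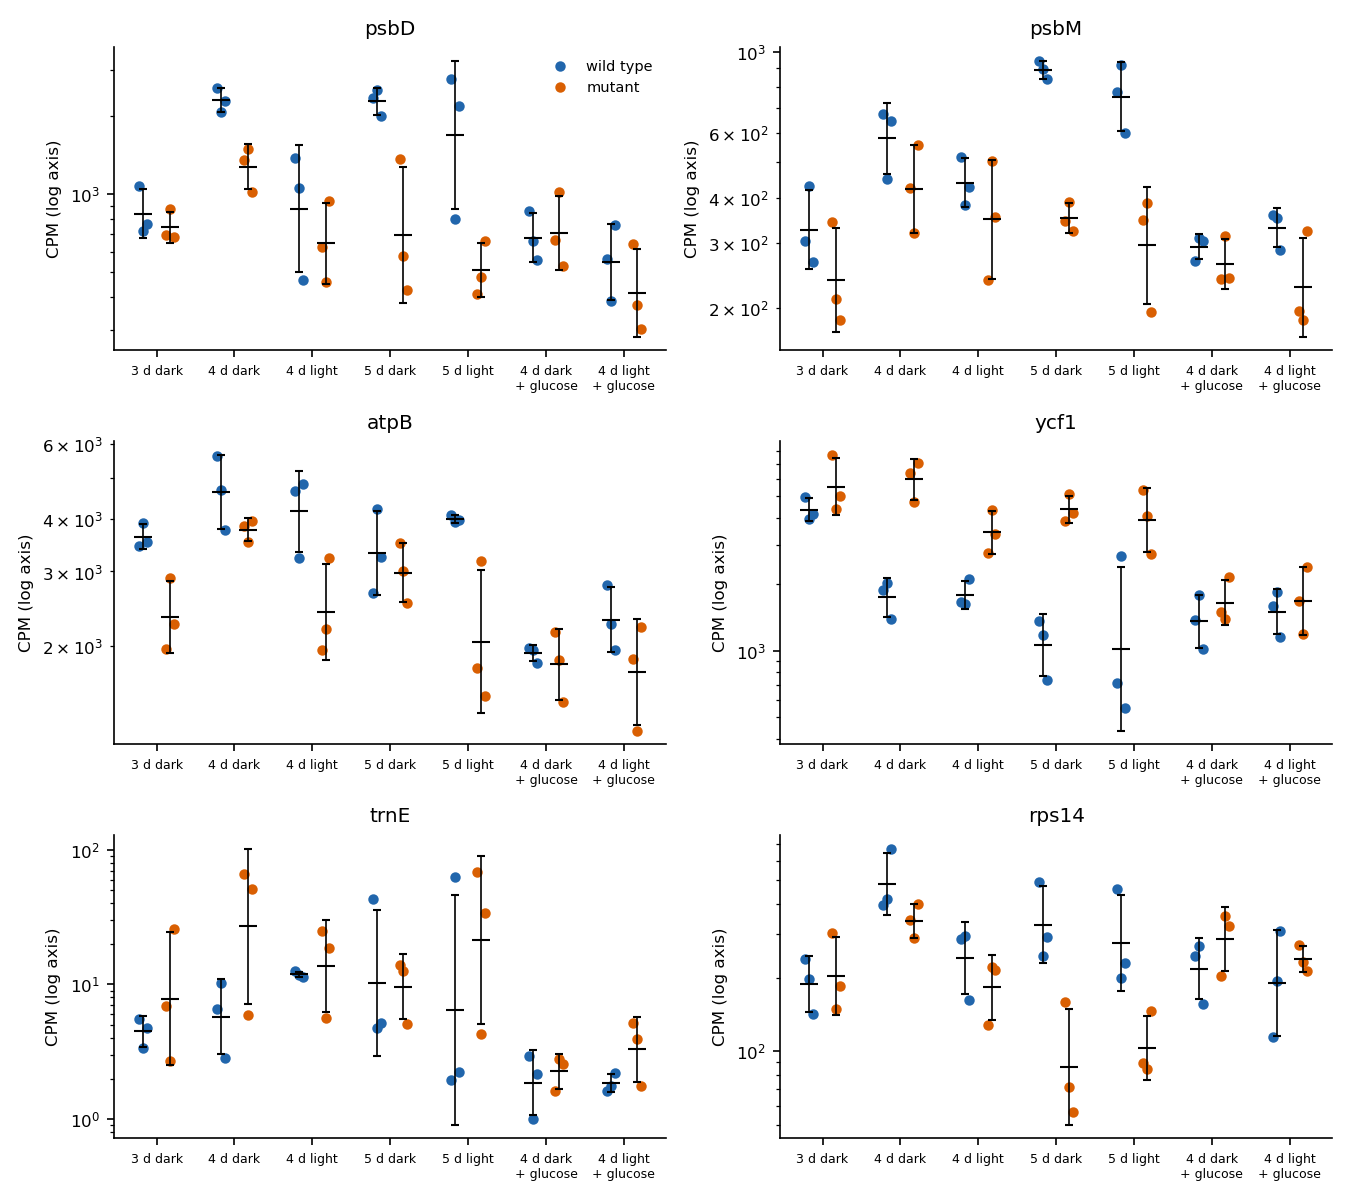
CPM of psbD, psbM, atpB, ycf1, trnE and rps14 in each library (log axes) in 7 conditions; points are libraries of wild type and mutant, bars are the mean ± SD of log2 values (n = 3). psbD and psbM separate the genotypes on d 5, and ycf1 is higher in every mutant than in every wild-type library on d 5.

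Glucose was set against untreated seedlings of d 4. In wild type in darkness 19 genes were lower with glucose and 0 higher (over all genes 22% were called higher and 20.9% lower), and the median fold change of the 105 genes was -1.14, against 0.03 over all genes. atpB was at 1983, 1959.7 and 1827 CPM with glucose and 5635, 4661 and 3759 CPM without (-1.54 ± 0.25, edgeR adjusted p = 8.5e-06). psbD was at 858, 657 and 558 CPM and 2565, 2072 and 2281 CPM (-2.0 ± 0.43). In both genes every glucose library lay below every untreated one. psbM (-1.27 ± 0.28), atpE (-1.05 ± 0.29) and rps14 (-1.43 ± 0.41) were lower as well, and these 5 calls were stable. Of 20 ribosomal protein genes tested 8 were lower, among them rpl32 (-0.97 ± 0.36) and rpl16 (-0.66 ± 0.25), both lost without the libraries labelled wild type 2 and mutant 2. Without that pair 10 genes were called, and without the library labelled wild type 2 alone 9. Of all genes 33.3% were called without the pair, and 42.9% with all libraries. The count was 7 without untreated library 1 or glucose library 3, and 7 on library totals alone. Root markers were lower with glucose, at 122 to 134 CPM against 185 to 199.7 CPM without overlap, and shoot markers were at 463 to 583 CPM against 399.6 to 466 CPM, with overlap.

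In wild type in light 7 genes were lower with glucose and 0 higher (over all genes 18.1% were called higher and 18.3% lower). The stable call was atpB, at 2779.5, 2260.1 and 1958 CPM against 4638, 3235 and 4824 CPM (-1.13 ± 0.25, edgeR adjusted p = 0.00049). trnY was at 0.418, 0.355 and 0.342 CPM with glucose and 3.82, 2.99 and 3.57 CPM without (-3.45 ± 1.27), and trnE at 1.61, 1.77 and 2.19 CPM and 12.5, 11.8 and 11.4 CPM (-2.95 ± 1.14). The groups were far apart in both tRNAs, yet the trnY call was lost in 5 of 6 refits without 1 library and the trnE call in all 6. The count was 1 without untreated library 1, 2 without glucose library 2, 3 without untreated library 3 or glucose library 3, and 4 without glucose library 1. Library totals alone gave 2. Shoot markers summed to 485 to 522 CPM with glucose and 403 to 467 CPM without, and did not overlap.

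In the mutant in darkness 20 genes were lower with glucose and 0 higher (over all genes 19.3% were called higher and 21.4% lower), 8 of them tRNA genes. trnE was at 1.61, 2.79 and 2.57 CPM with glucose and 66.1, 5.92 and 50.7 CPM without (-4.15 ± 1.13), and trnY at 0.386, 0.679 and 1.41 CPM and 28.1, 1.90 and 18.5 CPM (-4.26 ± 1.10). Untreated mutant 2 was the lowest untreated library in both tRNAs, and the groups did not overlap. ycf1 was at 1498, 1385 and 2155 CPM against 6365, 4689.7 and 7083 CPM (-1.86 ± 0.37, edgeR adjusted p = 0.00014). The tRNA gene trnG (ATCG00310, -3.23 ± 0.84), rps15 (-1.69 ± 0.39), atpE (-1.20 ± 0.29) and atpB (-1.05 ± 0.25) were lower too, and these 7 calls were stable. Without the libraries labelled wild type 2 and mutant 2 the count was 17 (33.9% of all genes, and 40.7% with all libraries). It was 9 without untreated library 1 or 3 and 10 without glucose library 1 or 3. Summed shoot markers were 445 to 574 CPM with glucose and 222 to 268 CPM without, and root markers 121 to 137 CPM and 86.2 to 105 CPM, higher with glucose in every library.

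In the mutant in light 4 genes were lower with glucose and 3 higher (over all genes 19.8% were called higher and 23.2% lower). ycf1 was lower, at 1673, 1185 and 2399 CPM against 2780.4, 4353 and 3357 CPM (-1.04 ± 0.36). The ribosomal protein gene rps18 was higher, at 414, 189.9 and 219 CPM against 96.8, 88.7 and 113 CPM (1.43 ± 0.48), and so was the methionine tRNA gene trnM, at 134, 109 and 135 CPM against 48.3, 61.8 and 55.2 CPM (1.15 ± 0.44). In all 3 the groups did not overlap, which the naming rule asked of them. The count was 0 without untreated library 2, 1 without glucose library 1 and 2 without glucose library 2, and no named call was stable. Shoot markers were at 397 to 445 CPM with glucose and 206 to 287 CPM without, again apart. The heat map of fold changes sets the genotype and glucose comparisons side by side; they share libraries.

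**Figure D5:**
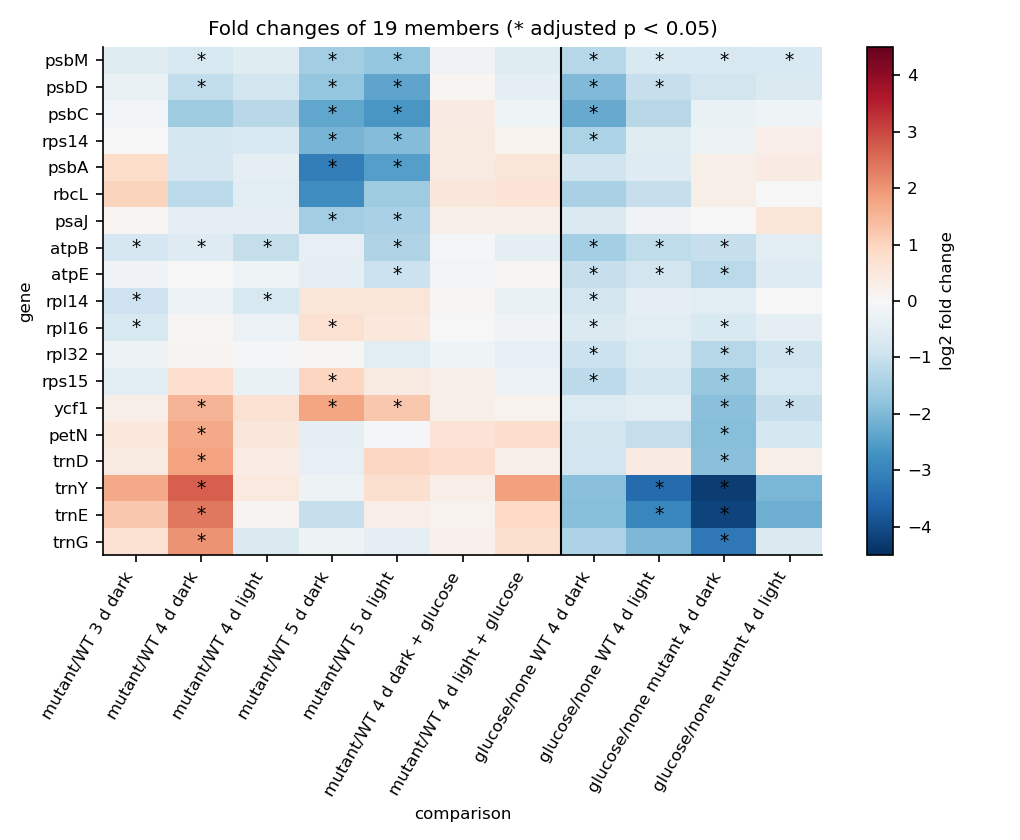
Log2 fold changes (colour) of 19 chloroplast genes in 7 comparisons of mutant with wild type and 4 comparisons of glucose with none; a star marks an edgeR adjusted p under 0.05. psbM, psbD, psbC and rps14 are low in the mutant on d 5 and ycf1 is high there, and no gene is starred between genotypes with glucose.

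Between light and darkness few chloroplast genes were called. In wild type on d 4 psbD was the 1 gene lower in light and 0 were higher (over all genes 14.4% were called higher and 13.5% lower), at 1383, 1055 and 466 CPM against 2565, 2072 and 2281 CPM (-1.14 ± 0.42, edgeR adjusted p = 0.039). The groups were apart, but the call was lost without any 1 library other than light library 1, and the count was 0 without any 1 of the dark libraries or light library 3. Root markers were lower in light on d 4 (131 to 135 CPM against 185 to 199.7 CPM) and on d 5 (118 to 134 CPM against 209 to 227 CPM), without overlap. In wild type on d 5 rpl2 (ATCG01310, in 2 copies) was the 1 gene higher and 0 were lower (over all genes 16.5% were called higher and 18.9% lower), at 1.08, 1.42 and 0.789 CPM against 0.105, 0.425 and 0.337 CPM (2.09 ± 0.55). That call was stable, but it rests on few counts, with at most 1.42 CPM in a library. In a gene of 2 copies a read also cannot be assigned to 1 copy. In this comparison 4 genes were called without dark library 1 and, on library totals alone, 1 higher and 3 lower.

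In the mutant on d 4 the ribosomal protein genes rps19 (-1.05 ± 0.23) and rps15 (-1.39 ± 0.38) were lower in light and 0 were higher (over all genes 1.62% were called higher and 0.748% lower). Neither call was stable: the count was 0 without dark library 1 or 3 or light library 2, and 1 without dark library 2 or light library 1. On d 5 6 genes were higher in light and 0 lower, all of them tRNA genes (over all genes 6.8% were called higher and 4.95% lower). trnD was at 10.0, 0.854 and 25.0 CPM in light and 2.07, 1.87 and 0.943 CPM in darkness (2.82 ± 0.76), and trnQ at 3.52, 0.320 and 16.5 CPM and 2.63, 0.138 and 0.404 CPM (2.66 ± 0.88). Light library 3 was the highest in both and light library 2 fell within or below the range of darkness. Library 3 is the shallowest of the series and had the highest mitochondrial share of its group, whose part was not tested. The count was 15 without light library 2 and 0 without light library 3 or dark library 2 or 3.

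With glucose, light against darkness gave 0 calls by edgeR and DESeq2. In wild type 0 genes had an unadjusted p under 0.05 by either tool (7.8% of all genes called by edgeR), and in the mutant 3 by edgeR and 5 by DESeq2 (1.43% of all genes called by edgeR). Leaving out the libraries labelled wild type 2 and mutant 2 kept both counts at 0.

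From d 3 to d 4 in darkness 4 genes rose in wild type and 3 fell (over all genes 12.1% were called higher and 12% lower), with a median over the 105 genes of 0.76, against 0.01 over all genes. psbD was at 2565, 2072 and 2281 CPM on d 4 and 1078, 722 and 765 CPM on d 3 (1.52 ± 0.42, edgeR adjusted p = 0.0081), a stable call with groups apart. rps14 (1.46 ± 0.41) and psbM (0.91 ± 0.27) rose as well. ycf1 fell, at 1882, 2034 and 1389 CPM against 4960.0, 3963 and 4169 CPM (-1.23 ± 0.36), a call lost without d 4 library 3. The count was 3 without d 3 library 1, 2 without d 3 library 3 and 1 without d 4 library 3. Shoot markers summed to 399.6 to 466 CPM on d 4 and 561 to 621 CPM on d 3, without overlap. Root markers were at 185 to 199.7 CPM and 201 to 228 CPM, also without overlap.

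In the mutant 3 genes were higher on d 4 and 0 lower (over all genes 11.5% were called higher and 12.7% lower), the tRNA genes trnD (2.22 ± 0.70) and trnfM (named after its values were seen, 2.44 ± 0.72), and psbM (0.76 ± 0.27). ycf1 was at 6365, 4689.7 and 7083 CPM on d 4 and 7697, 4362 and 4987 CPM on d 3 and was not called (0.04 ± 0.36). The count was 0 without d 4 library 1, 1 without d 3 library 2 or 3 or d 4 library 3, and 5 without d 4 library 2. Shoot markers were lower without overlap here too, at 222 to 268 CPM on d 4 and 363 to 493 CPM on d 3. So were root markers, at 86.2 to 105 CPM and 110.4 to 132 CPM.

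From d 4 to d 5 in darkness 7 genes fell in wild type and 0 rose (over all genes 4.91% were called higher and 4.51% lower), 6 of them ribosomal protein genes. rps19 was at 179, 201 and 141 CPM on d 5 and 401, 325 and 250.3 CPM on d 4 (-0.92 ± 0.23), and rpl16 at 679, 935 and 595 CPM and 1687, 1490.3 and 1024 CPM (-0.95 ± 0.25). The groups stood apart, but the count was 1 without d 4 library 1, 2 without d 5 library 3, 3 without d 4 library 2 and 4 without d 5 library 1. In the mutant 9 genes fell and 0 rose (over all genes 3.63% were called higher and 7.93% lower). The leucine tRNA gene trnL (ATCG00400) was at 101, 41.3 and 42 CPM on d 5 and 254, 161 and 218 CPM on d 4 (-1.76 ± 0.35, edgeR adjusted p = 0.00167), and its groups were apart. This call, that of the threonine tRNA gene trnT (ATCG00390, -1.31 ± 0.27) and that of rps19 (-1.05 ± 0.23) were stable. The count was 21 without d 5 library 1, 5 without d 4 library 1, 4 without d 5 library 2 and 3 without d 5 library 3. Shoot markers were at 333 to 381 CPM on d 5 and 399.6 to 466 CPM on d 4 in wild type, which did not overlap. In the mutant they were at 137 to 223 CPM and 222 to 268 CPM, which met. Root markers went the other way in wild type, at 209 to 227 CPM on d 5 and 185 to 199.7 CPM on d 4, without overlap. In the mutant root markers were at 97.2 to 106 CPM and 86.2 to 105 CPM, with overlap.

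A difference in the light response between genotypes was called in 3 genes on d 5, positive in trnQ (3.55 ± 1.31) and negative in atpB (-0.95 ± 0.35) and rpl2 (-2.04 ± 0.77), where over all genes 16.2% were called higher and 11.2% lower. The count was 0 without wild type dark 1, wild type dark 3, wild type light 1 or mutant light 3, 1 without wild type light 3, mutant dark 2, mutant dark 3 or mutant light 1, 6 without mutant dark 1 and 10 without mutant light 2. On d 4 edgeR and DESeq2 called 0, with 2 and 4 genes at an unadjusted p under 0.05 (9.16% of all genes called by edgeR). With glucose edgeR and DESeq2 called 0, each with 0 at an unadjusted p under 0.05 (0.159% of all genes called by edgeR).

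Nuclear genes that serve the chloroplast genome were counted in lists, each set beside the share of all genes called. Of 13 partners of plastid-encoded subunits, 11 to 13 were lower in the mutant in each of the 5 untreated conditions and 0 higher, where 14.3% to 31.4% of all genes were lower. Their median fold changes ran from -1.32 on d 3 to -2.51 on d 5 in light (over all genes 0.01 and 0.19). PSBP1, of the oxygen-evolving complex, had -2.49 ± 0.30 on d 5 in darkness, and PETC, the Rieske protein of cytochrome b6f, -3.11 ± 0.28 in light. With glucose in light edgeR called 0 of 13 partners between genotypes, 9 had an unadjusted p under 0.05, and DESeq2 called 2. The 13 log2 fold changes lay between -1.42 and -0.45. With glucose in darkness edgeR and DESeq2 called 0 partners with all libraries, with 0 at an unadjusted p under 0.05, and edgeR called 4 as lower without the libraries labelled wild type 2 and mutant 2.

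Of 20 genes of plastid transcription, 6 were lower and 1 higher on d 3, where 31.6% of all genes were called in either direction. On d 4 in darkness 5 were lower and 7 higher, beside 58.0% of all genes, and in light 11 and 1, beside 54.0%. On d 5 the counts were 9 and 2 in darkness, beside 61.3%, and 10 and 2 in light, beside 59.8%. These totals lie near the share over all genes, but the split by direction differs. In each of these conditions except d 4 in darkness, more of the list was lower than higher. Over all genes 14.3% were lower and 17.3% higher on d 3. On d 4 they were 28.5% and 29.5% in darkness and 25.2% and 28.8% in light. On d 5 they were 31.4% and 29.9% in darkness and 26.4% and 33.4% in light. The sigma factor gene SIG1 was lower on d 4 in darkness (-1.86 ± 0.22), and RPOTmp, a phage-type polymerase gene, was higher (2.61 ± 0.26). With glucose in light 4 of the 20 were lower and 0 higher. Of all 22586 genes, 1167 were called lower there, and 9.46% in either direction. Of 5 genes of plastid RNA turnover 3 or 4 were lower in each untreated condition, and 1 was higher on d 4 in darkness, against the same 14.3% to 31.4% of all genes lower.

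In wild type 6 of 13 partners were higher in light on d 4 and 11 on d 5, and 0 were lower, where 14.4% and 16.5% of all genes were higher. Their medians were 0.58 and 1.51, beside -0.48 and -0.39 in the 105 chloroplast genes and -0.03 and -0.08 over all genes. In the mutant edgeR and DESeq2 called 0 on d 4, with 8 at an unadjusted p under 0.05 by each, and 2 were higher on d 5 by edgeR, with medians of 0.62 and 0.74, where 1.62% and 6.8% of all genes were higher.

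With glucose in light 11 of 13 partners were lower in wild type (18.3% of all genes) and 3 higher in the mutant (19.8%). In darkness 9 were lower in wild type (20.9% of all genes) and 8 higher in the mutant (19.3%). Without the libraries labelled wild type 2 and mutant 2 these counts were 3 and 3. In those refits 33.3% and 33.9% of all genes were called in either direction. From d 3 to d 4 in darkness 16 of 20 transcription genes fell in wild type, with a median of -1.20, and 8 fell and 1 rose in the mutant (-0.70), where 12% and 12.7% of all genes fell. From d 4 to d 5 3 of 20 fell in wild type (-0.43) and 15 in the mutant (-1.20), beside 4.51% and 7.93% of all genes.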

How the data were processed

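RNA of whole seedlings was sequenced, and the authors deposited 3 tables of raw read counts per transcript model. Per the file headers, featureCounts 1.6.2 counted exons by parent model and gave a read in overlapping models to each; the options shown set neither multi-mapping reads nor strand. STAR, TAIR10 and DESeq2 are named in the submitters' processing notes, without versions. Of each gene the longest model was kept, and CPM was taken on the library total over these models. R 4.3.3 with edgeR 4.0.16 (filterByExpr, TMM, robust quasi-likelihood fit with a mean per group) tested 22586 genes in 42 libraries with 28 residual degrees of freedom, two-sided, and the script was tested on simulated data. Alternatives were DESeq2 1.42.0, library totals or nuclear genes for scaling, no filter, a replicate block and leaving out libraries. Replicate numbers were taken to pair samples where deviations from group means correlated above 0.1 in every pair. This held in the d 3 genotype comparison alone (0.176, 0.194 and 0.284). Over the chloroplast genes these correlations were -0.24, -0.153 and 0.158, so the rule did not hold in them. Correlations used Python 3.11.15 with scipy 1.17.1.

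Genes and lists were chosen with earlier results of these data known. The naming rule took psbA, rbcL, the 2 genes of each class with the highest level per length, genes without a count, and up to 3 called genes per comparison with the largest fold change and groups that do not overlap. From the nuclear lists at most 2 genes per comparison, those of smallest adjusted p, serve as examples.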

Additional observations from a re-analysis of the deposited data

Results flagged for a closer look

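On d 5 the response to light differed between genotypes by the interaction test in atpB (-0.95), trnQ (3.55) and rpl2 (ATCG01310, -2.04), given as differences of log2 fold changes, mutant minus wild type. In light and in darkness, atpB was at 1774, 3179 and 1522 CPM and 3497, 3007 and 2524 CPM in the mutant, and at 4082, 3919 and 3979 CPM and 2670.2, 4210.0 and 3238 CPM in wild type. trnQ was at 3.52, 0.320 and 16.5 CPM and 2.63, 0.138 and 0.404 CPM in the mutant, and at 0.864, 1.07 and 0.338 CPM and 2.85, 0.531 and 1.35 CPM in wild type. The highest value is that of mutant light library 3. rpl2 lies in 2 identical copies and was at 0.423, 0.960 and 0.404 CPM and 0.657, 0.484 and 0.674 CPM in the mutant, and at 1.08, 1.42 and 0.789 CPM and 0.105, 0.425 and 0.337 CPM in wild type. Each call was lost in 8 of 12 refits without 1 library, where the edgeR adjusted p reached 0.135, 0.352 and 0.127.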

How the results depend on the processing

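Scaling on library totals alone gave 1 gene called for genotype on d 3, 4 for wild type light on d 5, 1 for mutant light on d 4, 7 and 2 for wild type glucose in darkness and light, and 1 for the d 5 interaction. No filter on low counts gave 0 for wild type light on d 4, 1 and 3 for mutant light on d 4 and d 5, 2 and 3 for glucose in light in wild type and mutant, and 1 for the d 5 interaction. DESeq2 gave 35 for genotype on d 5 in darkness, 2 for wild type light on d 5, 4 for mutant light on d 4, and 5 and 14 for the mutant from d 3 to d 4 and d 4 to d 5. Without the glucose libraries labelled wild type 2 and mutant 2, the share difference with light was -0.2202. In that refit 10 genes were called for wild type glucose in darkness, beside 33.3% of all genes. For most other alternatives the share of all genes called is not given, so their counts do not single out chloroplast genes. On d 3, where the numbers were taken to pair the samples, the replicate block gave 5 calls. Elsewhere they share a number only, and the replicate block gave 7 calls for genotype on d 4 in darkness and 2 for wild type light on d 5. Leaving out 1 library at a time, share differences ran from -0.1457 to -0.07874 for genotype and -0.3076 to -0.2184 for light. Counts for genotype ran from 0 to 3 on d 3, 1 to 10 and 1 to 6 on d 4 in darkness and light, and 9 to 63 and 11 to 24 on d 5. For light they ran from 0 to 1 and 1 to 4 in wild type and 0 to 2 and 0 to 15 in the mutant, on d 4 and d 5. For glucose they ran from 7 to 17 and 1 to 6 in wild type and 9 to 20 and 0 to 8 in the mutant, in darkness and light. Over time they ran from 1 to 5 and 1 to 7 in wild type and 0 to 5 and 3 to 21 in the mutant, and from 0 to 10 for the d 5 interaction. The causes were not tested. Of the called fold changes of named genes 0 turned their sign under these alternatives. In all, 65 calls were lost and 2 gained in 1008 recomputations that kept all libraries, and 283 were lost and 1 gained in 990 that left one out. Both totals include comparisons in which psbA or rbcL was not called, where no call could be lost. Depth limits genes of few counts, and 28 of the 133 genes did not pass the filter.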
